A study of Mus musculus with 16 samples.

Results

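The genes described here are 10 genes of the B lineage and of lymphoid priming: Igkc, Ighm, Igj, Cd79a, Cd79b, Ebf1, Dntt, Rag1, Il7r and Satb1. They were chosen by name as a list of lymphoid genes, with their levels in all groups already known, so their own levels are a description, and counts of them past a threshold are printed beside the share of all genes and read as no result. They are 10 of the 26595 features of the CD93 experiment and 10 of the 36930 listed for the drug libraries, and each was found in both. The 16 libraries were made from total RNA of bone marrow cells sorted by flow cytometry, with the SMART-Seq v4 kit, from C57BL/6 mice of post natal week 8. WT LSK (2 libraries) and KO LSK (2) are naive LSK cells, the stem and progenitor fraction that lacks lineage markers and carries Sca-1 and c-Kit, of WT and of CD93-/- mice. WT LSC (3) and KO LSC (3) are leukemic stem cells of mice with chronic myeloid leukemia (CML), produced by transducing LSK cells of either genotype with BCR-ABL1-GFP and injecting them into BL/6 recipients that had not been irradiated. Those recipients therefore kept their own CD93-proficient blood system in both genotypes. Veh LSC (3) and MCP LSC (3) are leukemic stem cells from BL/6 CML made in the same manner, in mice given vehicle or MCP at 10 mg/kg. For the drug libraries the titles (LSC) and the source field (LSK) disagree, and groups were taken from the titles. Whether replicates are different animals is not stated in the labels, and the spread behind each p-value may be technical.

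B cells arise from stem cells through lymphoid-primed progenitors, which switch on Il7r, Dntt and the recombinase genes while they still lack a B cell receptor. Transcription factors such as EBF1 then start the B cell program, the heavy chain is rearranged first and the light chain after it, and antibody-secreting plasma cells make joining chain as well as immunoglobulin. Transcripts of unrearranged immunoglobulin loci are also known in early progenitors, and Dntt and rearranged heavy chains in plasmacytoid dendritic cells.

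Promoters of 4 of the genes are shown because 3 of them start genes of different steps (receptor, recombination, secretion) and the fourth, Dntt, is the most abundant priming gene of the list. Each is the 250 bases before the start site in RefSeq (GRCm38.p6), on the gene's own strand. Capitals mark a CAGGTG on either strand, the E-box read by E2A.
Cd79a, chr7:24897247-24897496, plus strand: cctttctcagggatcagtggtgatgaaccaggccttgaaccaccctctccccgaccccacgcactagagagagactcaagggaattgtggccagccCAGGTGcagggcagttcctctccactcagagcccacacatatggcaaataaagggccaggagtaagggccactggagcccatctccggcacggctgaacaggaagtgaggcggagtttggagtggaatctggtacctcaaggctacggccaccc
Rag1, chr2:101649533-101649782, minus strand: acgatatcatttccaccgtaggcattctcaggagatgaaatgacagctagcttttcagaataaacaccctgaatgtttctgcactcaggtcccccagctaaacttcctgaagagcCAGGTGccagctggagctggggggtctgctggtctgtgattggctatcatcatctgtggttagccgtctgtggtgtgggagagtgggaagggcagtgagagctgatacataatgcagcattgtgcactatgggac
Igj, chr5:88527898-88528147, minus strand: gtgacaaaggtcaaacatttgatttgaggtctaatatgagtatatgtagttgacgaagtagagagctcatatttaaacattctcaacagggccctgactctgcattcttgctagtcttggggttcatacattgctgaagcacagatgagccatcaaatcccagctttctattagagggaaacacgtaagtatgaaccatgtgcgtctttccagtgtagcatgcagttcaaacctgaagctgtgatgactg
Dntt, chr19:41029025-41029274, plus strand: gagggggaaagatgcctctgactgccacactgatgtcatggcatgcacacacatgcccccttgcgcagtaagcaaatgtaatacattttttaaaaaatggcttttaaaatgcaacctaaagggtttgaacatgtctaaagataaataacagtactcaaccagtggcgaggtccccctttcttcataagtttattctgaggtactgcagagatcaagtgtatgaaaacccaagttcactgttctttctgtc
The match began 154 bases before the start of Cd79a and 135 bases before that of Rag1. RefSeq promoters were found for 7 of the 10 genes, 12 promoters in all, and 3 of the 12 held CAGGTG (the third was 1 of the 5 of Satb1), against 17.2% of 32851 promoters of the same length. The octamer ATGCAAAT, known from immunoglobulin promoters, and the EBF motif (TCCC, any 2 bases, GGGA), both searched on both strands, were in 0 of the 12, against 1.6% and 0.779% of all promoters. No promoter was found for Igkc, Ighm and Cd79b, so the antibody chain genes of the list were not searched. A match is a stretch of letters and no evidence of binding. Only exact matches were counted, so 0 matches do not show that a site is absent.

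Levels are treated as RPKM, a unit inferred from the values because the labels do not name it. RPKM are reads scaled to the length of the transcript and the size of the library, and comparisons between genes rest on that inference. Values of the CD93 and drug experiments were deposited as separate tables and are not compared with each other. A gene without signal is listed at the lowest value of its table, 0.003 for the CD93 experiment and 0.001 for the drug libraries, and no fold is given against it. The LSC libraries of the CD93 experiment list far fewer genes above that value: 14279 to 14906 features in LSK, 5525 to 7956 for WT LSC, but 1230 to 2967 for KO LSC. In Veh they were 19554 to 20014 and in MCP 15587 to 16447. Depth is not given by the files. In single-exon genes about as long as Igkc, the smallest value above the lowest was 0.141 to 0.323 RPKM in LSK, 0.631 to 1.02 in WT LSC, 0.463 to 0.646 in KO LSC, 0.052 to 0.113 in Veh and 0.101 to 0.469 in MCP. In genes of that length no lower level was seen there, and genes above these values may be missed as well. The median of the features above the lowest value was 11.2 to 15.5 RPKM in LSK and 16.4 to 31.7 in WT LSC. It was 65.4 to 144 in KO LSC, 4.76 to 4.82 in Veh and 7.66 to 9.20 in MCP. Cd93 itself was 5.34 and 22.9 RPKM in WT LSK, 1.01 and 2.10 in KO LSK, at the lowest value in WT LSC 1 and 2, and 5.74 in WT LSC 3. It was at the lowest value in KO LSC 1 and 3 but 44.3 in KO LSC 2, a level not looked for under that label. Both KO LSK libraries also had Cd93 signal and WT LSC 1 and 2 had none, so Cd93 alone does not settle a label. KO LSC 2 is therefore called the library labelled KO LSC 2, and counts that it changes are given with and without it. In bulk RNA, fewer cells of a type and less RNA per cell cannot be told apart.

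**Figure D1:**
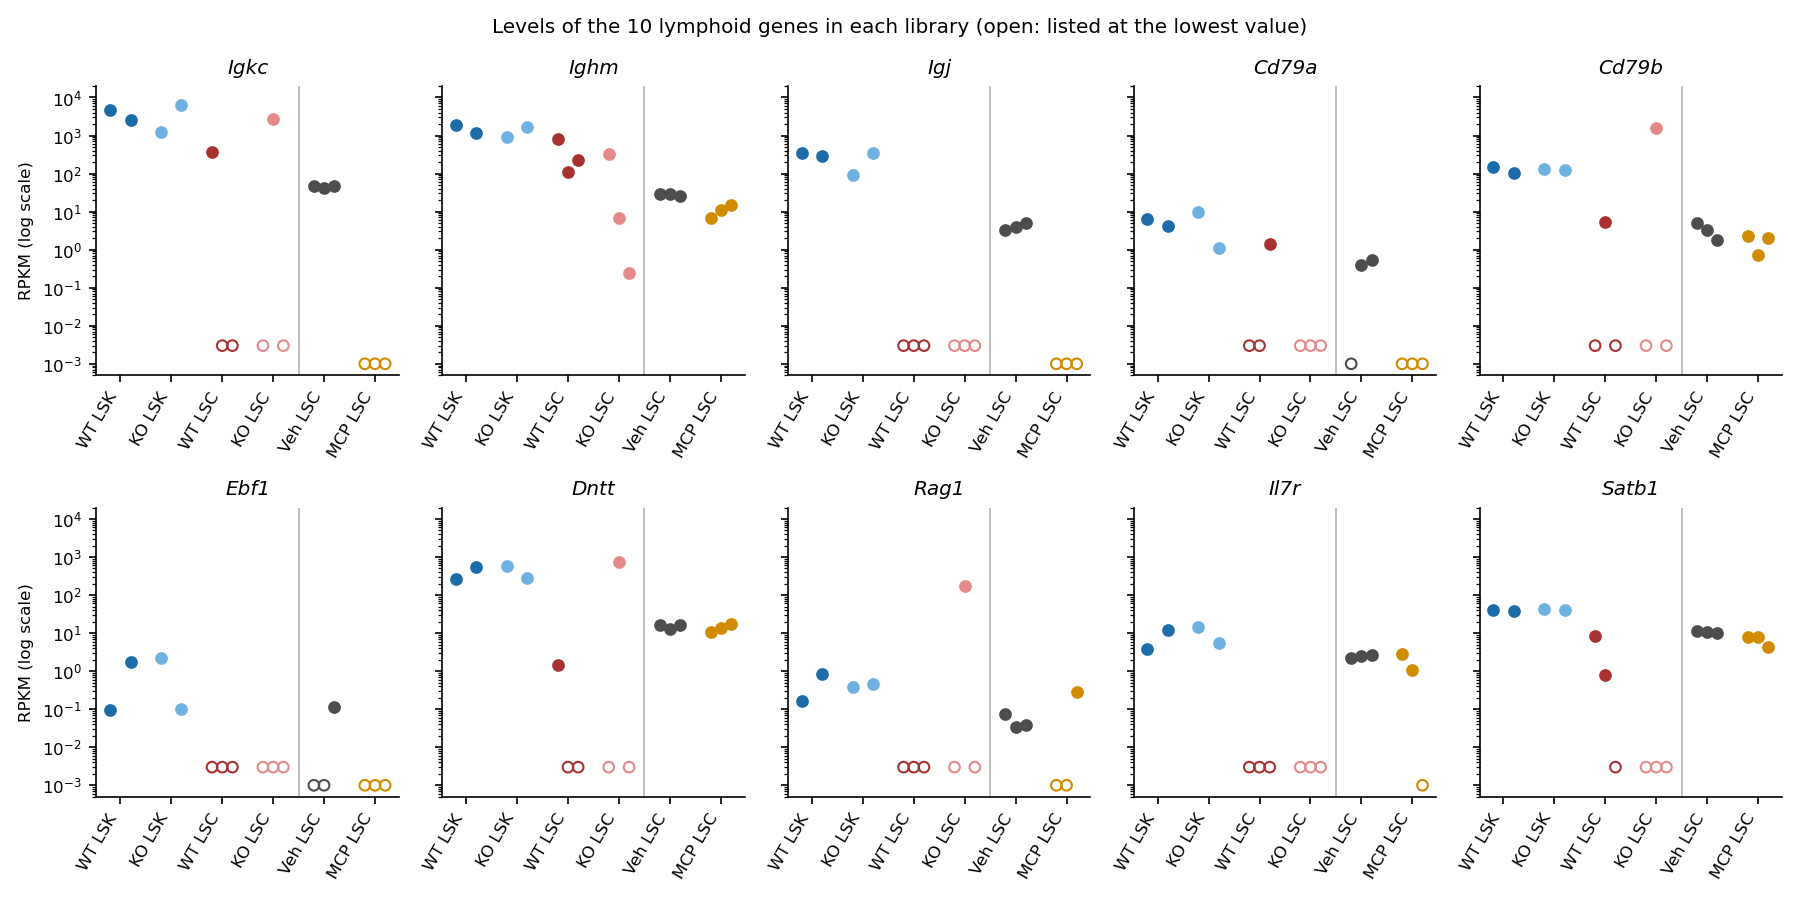
RPKM of each of the 10 genes in each library, on a log axis, by group (1 point per library; open points are listed at the lowest value; the line separates the CD93 and drug experiments). All 10 genes are above the lowest value in each LSK library, whereas the library labelled KO LSC 2 has 5 and the other KO LSC libraries have 1 each.

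Igkc and Ighm, the genes of the antibody chains, were the most abundant of the list in naive LSK cells. Igkc, the constant region of the kappa light chain (chromosome 6, 70726435 to 70726966, plus strand, GRCm38, 1 exon), was 4571 and 2488 RPKM in WT LSK, and 1239.7 and 6205 in KO LSK. It was 374 RPKM in WT LSC 1, at the lowest value in WT LSC 2 and 3, likewise in KO LSC 1 and 3, and 2711 in the library labelled KO LSC 2. Kappa transcripts were thus high in every LSK library and at the lowest value in 4 of the 6 LSC libraries. They were present in WT LSC 1, at a level below each LSK library. In the library labelled KO LSC 2 their level was within the range of the LSK libraries. Ighm, the mu heavy chain that is made first (chromosome 12, 113418558 to 113422730, minus strand), was 1923 and 1193 RPKM in WT LSK and 917 and 1668 in KO LSK. WT LSC libraries had 799, 111 and 232 RPKM of it, whereas KO LSC libraries had 321, 6.93 and 0.248. Ighm was the only gene of the 10 above the lowest value in all 16 libraries, and in the library labelled KO LSC 2 it was low where Igkc was high.

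Igj, the joining chain of secreted IgM and IgA (chromosome 5, 88519809 to 88527891, minus strand), was 356 and 289 RPKM in WT LSK and 91.6 and 341 in KO LSK, and each of the 6 LSC libraries had it at the lowest value. Cd79a and Cd79b encode the signalling pair that carries the B cell receptor's message. Cd79a (chromosome 7, 24897381 to 24902197, plus strand) was low, at 6.49 and 4.07 RPKM in WT LSK and 9.81 and 1.11 in KO LSK, with a single LSC value of 1.40 in WT LSC 3. Cd79b (chromosome 11, 106311341 to 106314762, minus strand) was 147 and 102 in WT LSK and 131 and 127 in KO LSK. In LSC libraries Cd79b was 5.32 in WT LSC 2, 1594 in the library labelled KO LSC 2 and at the lowest value in the other 4. The partners were therefore unequal in all LSK libraries, Cd79b lying above Cd79a in each.

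Among the transcription factors, Satb1 had a steady level and Ebf1 was barely present. Satb1, a chromatin organizer of lymphoid progenitors (chromosome 17, 51736187 to 51833290, minus strand), was 41.5 and 38.6 RPKM in WT LSK and 43.7 and 40.2 in KO LSK. In WT LSC it was 8.61, 0.796 and at the lowest value, and in KO LSC it was at the lowest value in all 3. Ebf1, which commits progenitors to the B lineage (chromosome 11, 44617317 to 45008091, plus strand), was 0.097 and 1.75 RPKM for WT LSK, 2.27 and 0.104 for KO LSK, and all 6 LSC libraries had the lowest value. The 4 LSK libraries agreed closely for Satb1 and split for Ebf1 into a pair near 2 RPKM and a pair near 0.1, each with 1 library of each genotype.

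Dntt, which encodes terminal transferase, the enzyme that adds bases at V(D)J joints (chromosome 19, 41029275 to 41059525, plus strand), was 272 and 550.0 RPKM in WT LSK and 585 and 276 in KO LSK. It was 1.45 in WT LSC 1, 737 in the library labelled KO LSC 2 and at the lowest value in the other 4 LSC libraries. Rag1, one subunit of the recombinase that cuts at V, D and J segments (chromosome 2, 101638282 to 101649501, minus strand), was 0.165, 0.865, 0.375 and 0.473 in the LSK libraries. In LSC libraries Rag1 was 178 in the library labelled KO LSC 2 and at the lowest value elsewhere, so its only level above 1 RPKM stood in that library. Il7r, the receptor chain that receives interleukin-7 (chromosome 15, 9505788 to 9530176, minus strand), was 3.74 and 11.9 RPKM for WT LSK, 14.0 and 5.62 for KO LSK, and it was at the lowest value in each of the 6 LSC libraries. Dntt was thus expressed far above the recombinase and Il7r in LSK cells, and its high and low LSK libraries were those of Ebf1 and Il7r.

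Within the 4 LSK libraries the 10 genes did not vary together. Dntt, Il7r and Ebf1 were higher in WT LSK 2 and KO LSK 1 than in WT LSK 1 and KO LSK 2, and so was Rag2, the other recombinase subunit, at 9.97 and 16.7 RPKM against 4.46 and 1.86. Igkc, Ighm and Igj instead had their lowest LSK level in KO LSK 1. Immunoglobulin segments followed: KO LSK 1 had 41 of 120 heavy chain V segments and 8 of 102 kappa V segments above the lowest value, against 50 to 55 and 16 to 42 in the other LSK libraries. Single segments differed far more. Igkv16-104 was 714 RPKM in KO LSK 2 and at the lowest value in the other 3 LSK libraries, and Iglv1 was 821 RPKM in WT LSK 1 and 13.3 in KO LSK 1. Igkv15-103, in contrast, was 179 to 834 RPKM in all 4. Reads of V segments and of Iglc1 to Iglc3 are split among near-identical copies, so single segments are uncertain. Constant regions of switched heavy chains were patchy as well, with Igha at 0.562 and 336 RPKM in WT LSK and at the lowest value and 512 in KO LSK.

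**Figure D2:**
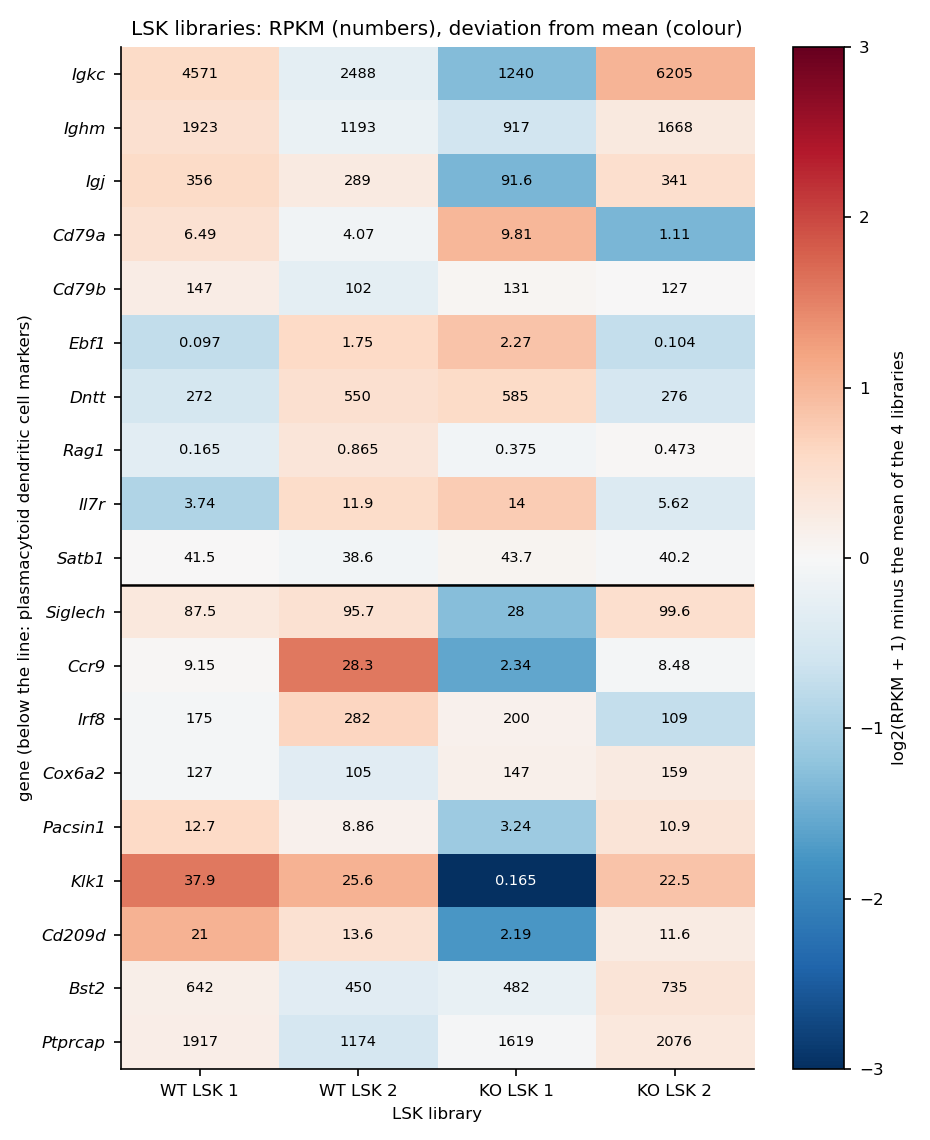
The 10 genes (above the line) and 9 markers of plasmacytoid dendritic cells (below) in the 4 LSK libraries; numbers are RPKM and colour is the deviation of log2(RPKM + 1) from the mean of the 4 libraries. KO LSK 1 is lowest for Igkc, Igj and 5 of the 9 markers, among them Siglech, Klk1 and Cd209d, and WT LSK 2 and KO LSK 1 are high for Dntt, Il7r and Ebf1.

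Markers of plasmacytoid dendritic cells, interferon-producing cells that can carry Dntt and rearranged heavy chains, were above the lowest value for 9 of 9 genes in each LSK library. Their summed level was 2183 to 3029 RPKM in WT LSK and 2483 to 3233 in KO LSK, most of it Ptprcap and Bst2, which other blood cells also make. Siglech, which marks these cells, was 87.5 and 95.7 RPKM in WT LSK and 28.0 and 99.6 in KO LSK. Of the 9 markers 5 had their lowest LSK level in KO LSK 1, as Igkc and Igj did (Siglech, Ccr9, Pacsin1, Klk1 and Cd209d), and 4 had it in another library (Irf8, Cox6a2, Bst2 and Ptprcap). The summed level was lowest in WT LSK 2. B cell markers were also detected, 14 to 17 of 20 in each LSK library with a summed level of 606 to 860 RPKM, but Pax5, the factor that fixes B cell identity, was at the lowest value in all 16 libraries. Of 12 plasma cell genes 11 or 12 were above the lowest value in each LSK library, summing to 388 to 502 RPKM. The part of such cells in the levels of the 10 genes was not tested. Siglech, Pax5 and Rag2 were picked from these lists after their values were seen.

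The CD93 comparison asked whether loss of CD93, a receptor on stem and progenitor cells, changed these genes in naive cells. KO and WT LSK libraries overlapped for all 10 genes: 0 were lower without overlap, beside 20.5% of the 13485 genes tested, and 0 higher, beside 14.0%. The widest difference among the 9 genes that could be tested was that of Igj, with a mean of 322 RPKM for WT LSK and 216 for KO LSK. Its log2 difference was -0.85 (SE 0.65), which was -1.94 with quantile normalization. The smallest was that of Dntt, at 0.06 (SE 2.92). Each SE comes from the spread of all 10 libraries, and Dntt ran from the lowest value to 737 RPKM in LSC. It is therefore not the spread of the LSK libraries, and a wide LSC spread can keep an LSK difference from passing. LSC libraries that are all at the lowest value add no spread and can let such a difference pass. Of the other genes in 6 lists of lymphoid genes, 79 of 90 could be tested, and 1 passed (limma, adjusted over all genes, threshold 0.05, as in the comparisons that follow), beside 1.83% of all genes. That was Blk, a Src-family kinase of the B cell receptor, which fell by 1.56 on the log2(RPKM + 1) scale (adjusted p = 0.00489). Blk was 1.84 and 2.43 RPKM in WT LSK, and at the lowest value and 0.123 in KO LSK. It was at the lowest value in every LSC library, and its SE was 0.16. The call was lost with the replicate number as a block and with only the 2 groups in the model. Without KO LSK 1, 6 of the lymphoid genes passed, all lower, and without WT LSK 1, 2 passed, both higher. The median of the 79 genes was -0.12 beside -0.11 over all genes.

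Between leukemic and naive WT cells, the 10 genes were all lower in LSC without overlap, beside 56.3% of all genes lower without overlap, and 5 of the 9 that could be tested passed, all lower, beside 42.3% of all genes; nothing is read from these counts, since the levels chose the genes. Satb1 had means of 40.1 RPKM in WT LSK and 3.13 in WT LSC, a log2 difference of -3.99 (SE 0.85) that shrank to -1.44 with quantile normalization. Ighm had means of 1558 and 381, a difference of -2.46 (SE 2.11, from all 10 libraries) that was -3.18 (SE 1.11) with quantile normalization.

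Of the other lymphoid genes, 35 of 79 were lower in WT LSC than in WT LSK and 1 was higher at the threshold, a share near the 42.3% and 1.45% of all genes. By list, those lower were 8 of 11 immunoglobulin constant and surrogate light chain genes, 6 of 15 B cell genes, 6 of 11 plasma cell genes, 6 of 22 priming genes, 5 of 10 recombination and end joining genes and 4 of 10 genes of the interleukin-7 pathway. Their median was -2.42 beside -1.94 over all genes. The values that follow are on the log2(RPKM + 1) scale, and where LSC libraries are at the lowest value they depend on the added 1. Here and in the later comparisons, a group with all libraries at the lowest value adds no spread, which lowers the SE and the p-value. Among them Lax1, an adaptor that limits lymphocyte receptor signals, fell by 5.68 (adjusted p = 7.21e-06), Il2rg, the chain that pairs with Il7r, fell by 6.65 (adjusted p = 0.0030) and Tnfrsf13c, the BAFF receptor, fell by 4.47 (adjusted p = 8.43e-05). Xrcc5, which encodes the Ku80 end-joining protein, fell by 5.11 (adjusted p = 6.52e-06). Bank1, a B cell scaffold protein, was the exception: it rose by 1.76 (adjusted p = 0.00817), from 3.22 and 6.26 RPKM in WT LSK to 14.9, 24.2 and 15.6 in WT LSC. The Bank1 call was lost without WT LSK 1 and with only these 2 groups in the model. With quantile normalization the median shift of all genes was -0.50, 29 of the 79 genes passed, and Prkdc, an end-joining kinase that fell by 1.96 as deposited, had a difference of 1.03, no longer past the threshold.

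Other lists moved in the same libraries, where 42.3% of all genes were lower at the threshold. All 10 genes of the stem cell and LSK sort list were lower in WT LSC and 13 of 24 tested T and NK cell genes were lower, and 6 of 9 plasmacytoid dendritic cell markers fell, with Siglech at the lowest value in all 3. Their summed level was 2183 to 3029 RPKM in WT LSK and 442 to 683 in WT LSC. Neutrophil genes summed to 1940.0 to 5568 RPKM in WT LSK and 62244 to 109288 in WT LSC. These shifts, and the smaller number of genes above the lowest value, moved with the lower lymphoid levels, and their part in them was not tested.

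In CD93-deficient cells, 6 of the 10 genes were lower in LSC than in LSK without overlap, beside 75.2% of all genes. Without the library labelled KO LSC 2 the count was 10 of 10, beside 80.3%, since Igkc, Cd79b, Dntt and Rag1 were high in that library alone among KO LSC. At the threshold 5 of 9 passed, all lower, beside 61.7% of all genes. Of the other lymphoid genes 52 of 79 passed, all lower, and 49 without that library, with a median of -4.21 beside -3.06 over all genes. The lower genes included 17 of 22 priming genes, such as Ccr7, a chemokine receptor, which fell by 3.98 (adjusted p = 5.21e-06), and 11 of 15 B cell genes, such as Syk, a kinase of the B cell receptor pathway, which fell by 4.90 (adjusted p = 0.000249). KO LSC libraries listed the fewest genes, and the part of this in the counts was not tested.

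Comparing KO with WT LSC, 0 of the 10 genes were lower without overlap, beside 14.1% of all genes. Satb1 and Ighm had lower means in KO LSC with overlapping libraries: Satb1 was at the lowest value in all 3 and above it in WT LSC 1 and 2, and Ighm had means of 381 RPKM in WT LSC and 109.5 in KO LSC. Of the other lymphoid genes 4 of 79 passed, all lower in KO LSC (limma), beside 8.81% of all genes, and none of them rose above the lowest value in any of the 3 KO LSC libraries. Bank1 was 14.9 to 24.2 RPKM in WT LSC (adjusted p = 0.000536) and Syk 16.4 to 37.9 (adjusted p = 0.00103). Crlf2, the receptor chain for TSLP that pairs with Il7r, was 14.3 to 56.6 (adjusted p = 0.00181). These levels lay under the median of the features above the lowest value in each KO LSC library, 65.4 to 144 RPKM. Fkbp11, a folding enzyme of secretory cells, was 239, 277 and 18.3 in WT LSC (adjusted p = 0.00639). These 4 calls were kept in all 11 alternatives, also without the library labelled KO LSC 2, when 7 of the lymphoid genes passed. The count was 8 without WT LSC 2, 11 without WT LSC 3 and 7 without KO LSC 1. The genotype effect itself differed between LSC and LSK for 4 of the 79 genes, beside 6.08% of all genes. It was more negative in LSC for 3 (Bank1, Syk and Crlf2) and less so for Blk, which had no signal in any LSC library. These calls were lost with the replicate block and that of Syk also without the library labelled KO LSC 2. For KO minus WT in LSC, 1 of 9 plasmacytoid dendritic cell markers, 1 of 10 stem cell genes and 1 of 7 neutrophil genes passed. All were lower (limma): Irf8 fell by 4.87 (adjusted p = 0.00183), Meis1 by 4.64 (adjusted p = 0.00161) and S100a8 by 1.75 (adjusted p = 0.0395, a call lost in 7 of 11 alternatives). The dendritic cell markers had a median of -0.02 beside -0.77 over all genes. They summed to 442 to 683 RPKM in WT LSC and 0.027 to 6430 in KO LSC. Of these, Bst2 was at the lowest value in 1 KO LSC library and at 2427 and 6430 RPKM in the others. Neutrophil genes summed to 62244 to 109288 RPKM in WT LSC and 31522 to 50927 in KO LSC. The part of these shifts and of the low number of genes detected in KO LSC was not tested.

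**Figure D3:**
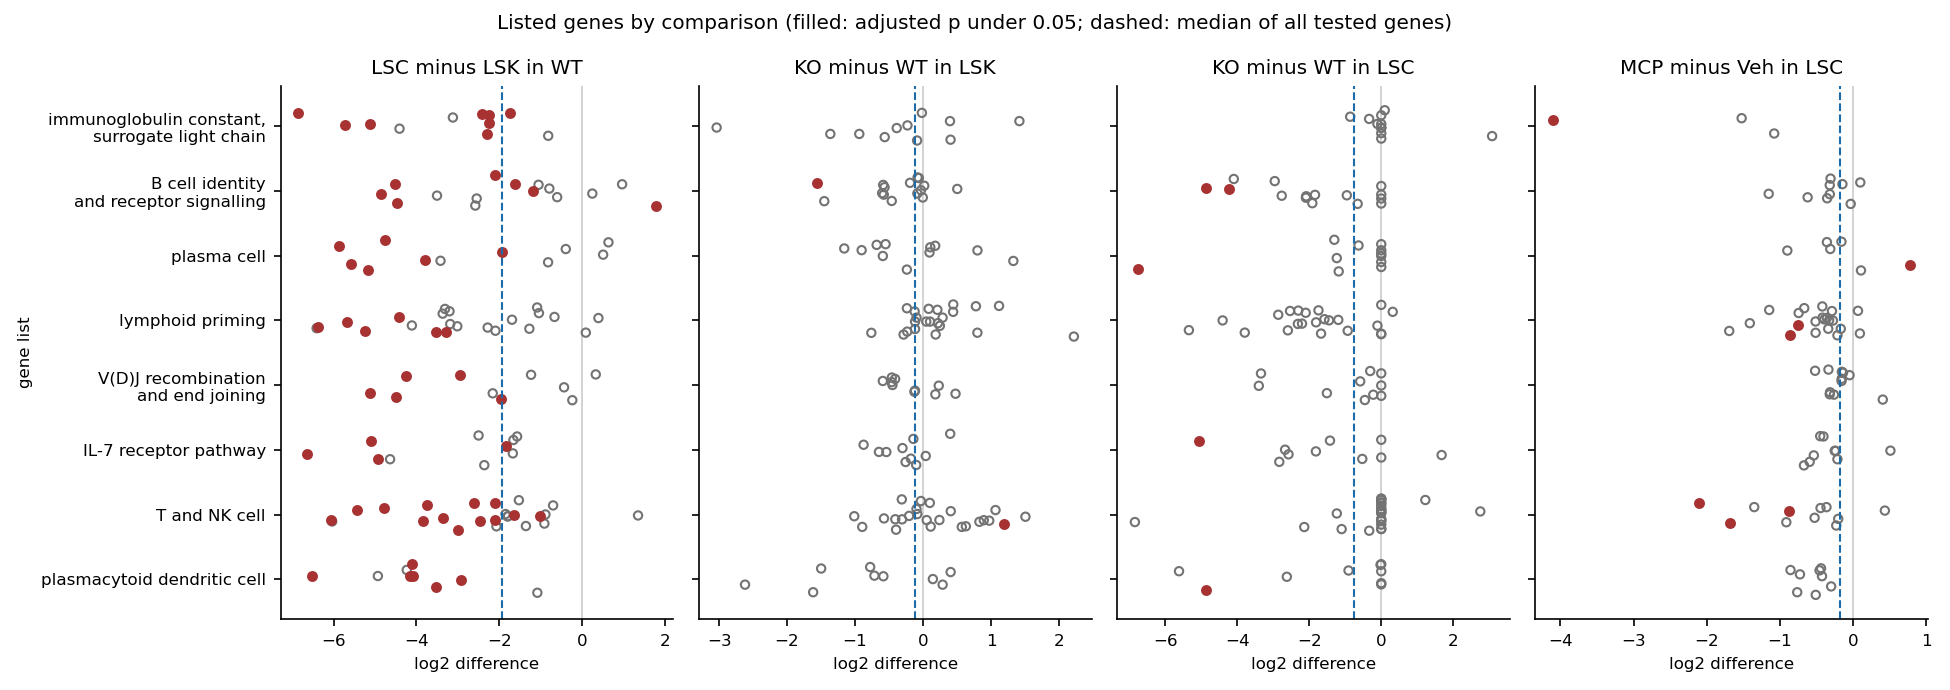
Log2 differences of the tested genes of 8 lists (6 lymphoid lists, T and NK cell genes, and plasmacytoid dendritic cell markers) in 4 comparisons; each point is a gene, filled where the adjusted p is under 0.05, and the dashed line is the median of all tested genes. In LSC minus LSK of WT cells 35 points of the lymphoid lists are filled and lower and 1 is filled and higher.

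The library labelled KO LSC 2 held a mixed set of lymphoid transcripts. Beside Igkc, Cd79b, Dntt and Rag1 it had Ighg2c, a switched heavy chain constant region, at 605 RPKM, Flt3, the receptor of early lymphoid progenitors, at 304, Stat5a at 169 and Cd3d, a T cell receptor chain, at 146. These were picked after their values were seen. In the other KO LSC libraries all 4 were at the lowest value. Of the 20 B cell genes 0 to 1 were above the lowest value in each KO LSC library, and Igj and Cd79a were at the lowest value. In the library labelled KO LSC 2, 1 of 102 kappa V segments and 1 of 5 kappa J segments were above it, and the kappa J segments summed to 699 RPKM. High values in this library included genes of different lineages, in a library with 2310 features above the lowest value. Whether they came from the same cells was not tested.

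The drug comparison asked what MCP, or metoclopramide, a dopamine receptor antagonist used against nausea, did in leukemic stem cells of WT origin. Igkc was 47.4, 43.0 and 46.9 RPKM in Veh and at the lowest value in all 3 MCP libraries. Igj was 3.26, 3.92 and 5.05 in Veh and at the lowest value in all 3 MCP libraries. Ighm was 28.8, 28.6 and 25.2 in Veh and 6.73, 11.1 and 14.9 in MCP, a log2 difference of -1.32 (SE 0.26). The kappa and joining chains were thus at the lowest value in each MCP library while the mu chain was lower and still present in all MCP libraries.

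The receptor pair and the priming genes were closer. Cd79b was 5.13, 3.29 and 1.76 RPKM in Veh and 2.23, 0.71 and 2.04 in MCP, and the groups overlapped. Cd79a, at 0.405 and 0.548 in Veh 2 and 3, and Ebf1, at 0.112 in Veh 3, were at the lowest value in the other drug libraries. Dntt was 16.3, 12.5 and 16.6 in Veh and 10.97, 13.6 and 17.0 in MCP, a log2 difference of -0.13 (SE 0.20) with overlapping groups. Il7r was 2.27, 2.53 and 2.63 in Veh, and 2.91, 1.06 and at the lowest value in MCP. Satb1 was 11.3, 10.7 and 10.1 in Veh and 8.10, 7.74 and 4.42 in MCP, a log2 difference of -0.63 (SE 0.24) that was -0.41 (SE 0.24) with quantile normalization, and its groups did not overlap. Rag1 was 0.075, 0.034 and 0.039 in Veh and was seen in 1 MCP library, at 0.28. Lower levels without overlap were found for Igkc, Ighm, Igj and Satb1, 4 of the 10 genes beside 25.6% of all genes, and 3 of the 7 tested passed, all lower, beside 1.8% of all genes lower. Nothing is read from these counts.

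Ighg2c and the kappa J segments also had no signal in the MCP libraries. Ighg2c, the constant region of a switched antibody class, was 21.0, 15.7 and 12.7 RPKM in Veh and at the lowest value in all MCP libraries (adjusted p = 0.00108), and its call was kept in all 10 alternatives. It was 1 of the 3 genes of its list that could be tested. Heavy chain V segments above the lowest value were 24, 22 and 20 of 120 in Veh and 0, 0 and 2 in MCP, and kappa V segments 7, 6 and 11 of 102 in Veh and 1, 1 and 0 in MCP. Kappa J segments were above it for 3, 4 and 4 of 5 in Veh and for 0 in MCP. Heavy chain J segments summed to 14.5, 11.6 and 10.8 RPKM in Veh, and in MCP had signal in 1 library, at 4.61. Heavy chain V segments summed to 8.44 RPKM in MCP 3, against 22.8 to 30.9 in Veh. Lambda V segments overlapped, at 2.36, 0.148 and 1.51 RPKM in Veh and 0.322, 3.97 and 0.95 in MCP. Igkv12-46, the most abundant segment, was 15.3, 20.6 and 22.7 RPKM in Veh and at the lowest value in MCP.

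**Figure D4:**
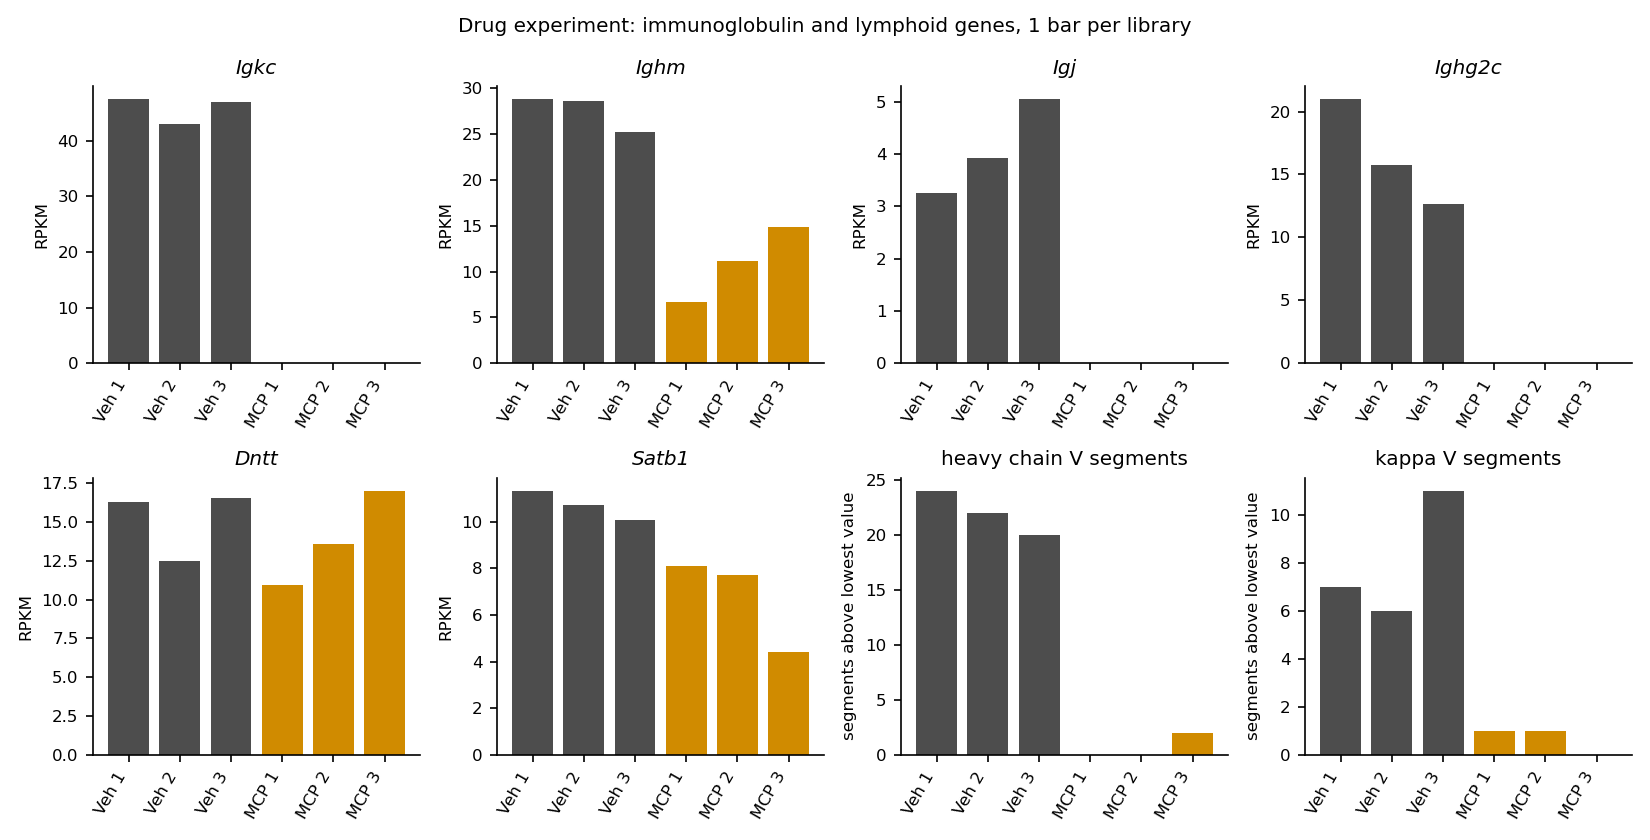
RPKM of 6 genes and number of heavy chain and kappa V segments above the lowest value, 1 bar per Veh or MCP library. Igkc, Igj and Ighg2c have no visible bar in MCP, Ighm and Satb1 are lower, and Dntt overlaps between the groups.

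Among all lymphoid genes beside the 10, 3 of 59 tested were lower under MCP and 1 was higher, beside 1.8% and 0.521% of all genes, with a median of -0.33 beside -0.18. In addition to Ighg2c, the lower ones were the priming factors Sox4, which fell by 0.87 (adjusted p = 0.0279), and Mef2c, which fell by 0.76 (adjusted p = 0.0322). Fkbp11 rose by 0.78 (adjusted p = 0.0243), from 29.7 to 34.8 RPKM in Veh to 51.5 to 61.6 in MCP. These 3 calls were lost with the replicate block and without any single Veh library, and that of Mef2c with quantile normalization. None of the 9 tested B cell genes, 11 recombination genes or 9 interleukin-7 pathway genes passed (limma), although 2, 0 and 6 of them had an unadjusted p under 0.05.

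Marker lists moved beside the immunoglobulin genes in these libraries. The 20 B cell genes summed to 217 to 227 RPKM in Veh and 180.4 to 194 in MCP, with Pax5 and Ms4a1, both picked after their values were seen, at the lowest value in all 6 libraries. The 12 plasma cell genes summed to 271 to 280.1 RPKM and 253 to 306, with 10 to 11 of them above the lowest value in Veh and 7 to 9 in MCP. Plasmacytoid dendritic cell markers summed to 167 to 179 and 116 to 149.7 RPKM, with 0 of 8 tested genes passing and 2 at an unadjusted p under 0.05 (limma). Of 11 tested T and NK cell genes 3 were lower in MCP, Tcf7 (fell by 1.68, adjusted p = 0.0260), Gzmb (fell by 2.10, adjusted p = 0.0269) and Lat (fell by 0.88, adjusted p = 0.0360), and their calls were lost without any single Veh library. Of the 10 stem cell and LSK sort genes 5 were lower. Of all genes tested 1.8% were lower and 0.521% higher. Neutrophil genes summed to 172 to 189 RPKM in Veh and 244 to 349 in MCP, and S100a8 rose by 0.79 (adjusted p = 0.0430), a call lost in 7 of 10 alternatives, leaving out any Veh library among them. MCP libraries also listed fewer features above the lowest value. The part of these shifts in the immunoglobulin levels was not tested.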

How the data were processed

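RNA of 16 libraries in 6 groups, taken from the sample titles, was analysed. The unit was inferred from the values: the authors deposited 1 table per library of values that match RPKM, and the labels do not name the unit. Per the submitters' processing notes the build was GRCm38 (mm10); the aligner is not given in the sources used here, nor is the counting tool. Counts were not used, so tests that need counts were not run. The scale was log2(value + 1), and limma 3.58.1 (R 4.3.3) was fitted with an intensity trend. A model held the 10 CD93 libraries and another the drug libraries, and each SE comes from all libraries of its model. A gene was tested if 2 or more libraries had 1 RPKM or more (13485 and 14005 genes), two-sided, with Benjamini-Hochberg adjustment over all of them and a threshold of 0.05. Rag1 was below this filter in both experiments and Cd79a and Ebf1 in the drug experiment. Differences are on the log2(RPKM + 1) scale and understate changes of low genes.

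The 10 genes and the 10 other lists were chosen with earlier results of these data known. All list entries were matched, 151 of 154 by symbol and 3 by synonym in the CD93 experiment and 152 and 2 in the drug experiment; the tables write Jchain as Igj. Named genes were the 10 genes, up to 4 passing genes with the smallest p per list and comparison, otherwise the 2 most abundant, and the 3 most abundant V segments; others are named as picked after their values were seen. Gene positions are from GENCODE M21. The alternatives tried were a pseudocount of 0.1, no filter, quantile normalization, a replicate block, only the compared groups, and leaving out each library; a crossed block and the likeness without KO LSC 2 were added after the data were seen. The model was also run on simulated data with normal noise and no lowest value. That run cannot speak to genes listed at the lowest value, and no conclusion is drawn from it.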

Additional observations from a re-analysis of the deposited data

Results flagged for a closer look

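The genotype effect differed between LSC and LSK libraries for 6 listed genes. The limma test was of the difference itself on the log2(RPKM + 1) scale, with p adjusted over all genes tested. The 6 were 4 of 79 lymphoid genes, 1 of 24 T and NK cell genes and 1 of 9 plasmacytoid dendritic cell markers. None of 7 neutrophil or 10 stem cell genes passed. The share of all genes was 6.08%. KO minus WT was greater in LSC than in LSK by 1.56 for Blk (adjusted p = 0.00865), which was lower in KO LSK and without signal in every LSC library. It was more negative in LSC by -4.17 for Bank1 (adjusted p = 0.00865), -4.29 for Syk (adjusted p = 0.0269) and -5.11 for Crlf2 (adjusted p = 0.0270), none of which had signal in the 3 KO LSC libraries. The difference was -1.19 for Thy1 (adjusted p = 0.0435), a T cell surface marker that was 4.93 and 4.14 RPKM in WT LSK, was 12.8 and 10.6 in KO LSK and had no signal in the 6 LSC libraries. With no LSC signal, the values of Blk and Thy1 are their LSK differences with the sign reversed. Their LSC libraries also add no spread, which lowers the SE and the p-value. Irf8, a factor of dendritic and B cells, had a difference of -4.28 (adjusted p = 0.0459) and no signal in the 3 KO LSC libraries. These 6 calls were lost with the replicate number as a block. That was the 1 loss for Blk (of 12 alternatives) and Bank1 (of 14). Of 14 alternatives each, Irf8 was lost in 9 (quantile normalization and leaving out any LSK or any KO LSC library among them), Thy1 in 7, Crlf2 in 5 and Syk in 4. Without the library labelled KO LSC 2 the calls of Irf8, Thy1 and Syk were lost. None of the 10 genes was tested for this difference as a result, since their levels chose them.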

How the results depend on the processing

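Counts are of the other lymphoid genes that passed. As analysed they were 1 for KO minus WT in LSK, 4 for KO minus WT in LSC, 36 for LSC minus LSK in WT, 52 for LSC minus LSK in KO, 4 for the genotype effect in LSC minus genotype effect in LSK, and 4 for MCP minus Veh in LSC. Same-numbered libraries did not deviate together (r = -0.28 in LSK, -0.0060, -0.023 and 0.0035 in LSC, 0.0080, 0.014 and -0.0084 in the drug experiment). With 2 libraries per LSK group the deviations mirror each other, and differently numbered LSK libraries had r = 0.28. The labels do not say what the number stands for, and these values cannot show whether libraries share an animal or a day. With the replicate number as a block the counts were 0, 4, 34, 49, 0 and 1. A crossed block, added after the data were seen, gave 0 for LSK. With only the 2 groups compared the LSK count was 0. In LSC the count was 9 with quantile normalization and 10 with a pseudocount of 0.1. Leaving out each library in turn gave 1 to 6 in LSK, 4 to 11 in LSC, 27 to 37 in WT, 36 to 52 in KO, 2 to 9 for the difference and 1 to 6 for MCP, where the low counts came from leaving out any Veh library. The difference count was 9 without KO LSK 1, 7 without WT LSC 2, 9 without WT LSC 3 and 2 without KO LSC 3.

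Quantile normalization moved the median of all genes from -1.94 to -0.50 for LSC minus LSK in WT and from -3.06 to -1.14 for LSC minus LSK in KO. It split all calls of LSC minus LSK in WT as 625 higher and 3872 lower (196 and 5709 as deposited) and of MCP minus Veh in LSC as 97 and 150 (73 and 252). Prkdc reversed under it, to 1.03 in WT and 0.57 in KO; the cause was not tested. The log2 difference of Dntt changed sign with it for KO minus WT in LSK (-0.18) and for MCP minus Veh in LSC (0.05), both smaller than their error. Of the alternative values of the named genes, 972 kept direction and call, 111 lost the call and 2 reversed. Depth is unknown, levels near the smallest value of a library cannot be told from absence, and genes above that value may be missed as well.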

Other observations

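Over the 10 libraries of the CD93 experiment, the 3 genes whose log2(RPKM + 1) was most like that of Igkc, Dntt and Satb1 are in none of the lymphoid lists. Igkc was most like Mrpl43 (Pearson r = 0.993), Ogfr (0.992) and Ndufb6 (0.990), with 90 genes above r = 0.9. Dntt was most like Nob1 (0.997), Ssbp2 (0.993) and Pip5k1a (0.992), with 122 genes above that value. Satb1 was most like Oas1g (0.999), H2-DMb1 (0.998) and Mterfd1 (0.998), with 3546 genes above it. Igkc and Dntt were high in the library labelled KO LSC 2, where Satb1 was at the lowest value. Without that library, an alternative added after the data were seen, the r of these 9 genes stayed between 0.992 and 0.999, and the genes above r = 0.9 were 1402 for Igkc, 4256 for Dntt and 3364 for Satb1. All points come from the same 10 libraries, which differ widely in the number of genes above the lowest value, and the values are a description only.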
